A study of Mus musculus with 12 samples.

Results

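Mouse spinal cord that had been injured and had received syngeneic mesenchymal stem cells (MSC) was compared with non-injured cord, gene by gene. The comparison holds 6 of the 12 RNA-seq libraries of the study, 3 labelled as spinal cord injury (SCI) with syngeneic MSC and 3 labelled as non-injured, chosen by their labels alone. Of the 46078 genes in the deposited table, 16527 had enough counts to be tested. MSC are multipotent stromal cells, and a syngeneic donor is genetically matched to the host. The other 6 libraries, 3 from SCI without a named cell graft and 3 from SCI with allogeneic (unmatched) MSC, entered the same fit and are used below for direct tests against the syngeneic group and for values set beside it. All 12 libraries come from hosts of the strain C57BL6/cJ and from tissue labelled spinal cord. Transplantation and injury both separate the compared groups, so their parts in a difference cannot be told apart here. The labels leave unsaid if each sample is its own animal. The p-values therefore measure only how these samples vary, and that variation may be technical. The time since injury, the time of day, the donor strain, sex, age, cord level and any vehicle in the SCI group are not stated by the labels. The title numbers of the syngeneic samples form a range of their own, so a set of samples handled apart cannot be told apart from the group.

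After contusion or cutting of the cord, resident microglia and blood monocytes clear myelin and dead cells, astrocytes around the lesion enlarge and make filament proteins, and fibroblasts lay down matrix in the lesion. Complement proteins tag debris for uptake, interferons raise the genes of antigen presentation, and phagocytes loaded with myelin lipid switch on lysosome and cholesterol export genes. Oligodendrocytes make the cholesterol of myelin, while neurons, myelin and vessels of the cord can be lost from the lesion.

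Library totals ran from 15518403 to 26151928 counts in the non-injured and from 15473549 to 24947862 in the syngeneic group. Markers of cord were present in all 6 libraries: Mbp of myelin, Snap25 and Chat of neurons, Slc6a5 of glycinergic neurons, Gfap of astrocytes, and Hoxc6, Hoxc8 and Hoxa7 of the trunk axis. Libraries of a group did not all lie together. Syngeneic replicate 3 correlated across genes, which are not independent replicates, with r of 0.9894 to 0.9911 with the SCI libraries and 0.9767 and 0.9823 with the other syngeneic libraries. On the first principal component it lay at 27.4, near the SCI libraries (29.6 to 39), while syngeneic replicates 1 and 2 lay at -12.9 and -27.2 and the non-injured libraries at -80.5 to -66.6. Non-injured replicate 3 held more mitochondrial counts (10.9%) than the other 2 non-injured libraries (7.46% and 8.18%) and lay at -56.2 on the second component, against 14.6 and 15.5. Counts of called list members are therefore also given without 1 library where that moves them by more than 1.5 times.

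Genes count as called where edgeR's quasi-likelihood test gave an adjusted p (Benjamini-Hochberg over all 16527 genes) below 0.05, and levels are CPM, read counts scaled to library size. Fold changes are on the log2 scale, syngeneic minus non-injured, with their standard error (SE). Of all genes tested 883 (5.34%) were called. Counts of called list members are to be set beside this share. An unadjusted edgeR p below 0.05 was reached by 3188 of the 16527, in either direction. Counts of list members at that unadjusted p are to be set beside this number. Higher in the syngeneic group were 813 (4.92%) and lower were 70 (0.424%). A log2 change of at least 1 was reached by 639 of the higher genes, and one of -1 or below by 17 of the lower genes. The 3 syngeneic libraries all lay above or all below the 3 non-injured libraries in 3449 genes (20.9%), among them 812 of the genes called higher and all 70 called lower. The median over all genes tested was 0.031. Tissue RNA was measured in bulk, so fewer cells of a type and less RNA per cell cannot be told apart.

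**Figure D1:**
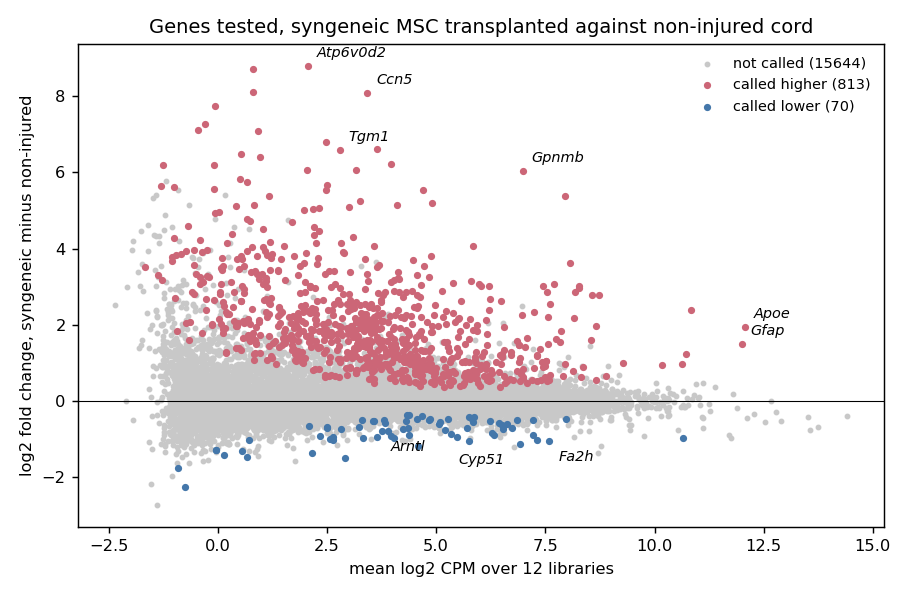
Log2 fold change of each gene tested (vertical axis, syngeneic minus non-injured) against its mean log2 CPM over the 12 libraries (horizontal axis), 1 point per gene, red where called higher (813), blue where called lower (70) and grey otherwise. Called rises reach far larger sizes than called falls, and named genes are written beside their points.

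Most called rises were largest in a single library. Syngeneic replicate 3 was the highest of the 3 syngeneic libraries in 767 of the 813 genes called higher, and syngeneic replicate 2 was the lowest in 689. Among the 70 genes called lower, replicate 3 was the lowest in 46 and replicate 2 the highest in 60. In the 15644 genes not called, replicate 3 was the highest in 4437 (28.4%). Without syngeneic replicate 3 the number of called genes was 436, of which 435 were among the 883, and without syngeneic replicate 2 it was 1752. It was 358 without non-injured replicate 1, 459 without non-injured replicate 2, and 556 (551 higher and 5 lower) when syngeneic replicate 3 and non-injured replicate 3 were both left out. Of the 813 higher genes 323 were called in each of the 6 fits that left out 1 library of the compared groups, and of the 70 lower genes 5 were. A gene called in all 6 of those fits is said below to hold without any 1 library. Those fits still drew the spread from the SCI and allogeneic libraries too. With only the libraries of the 2 compared groups 172 genes were called, 171 of them among the 883.

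**Figure D2:**
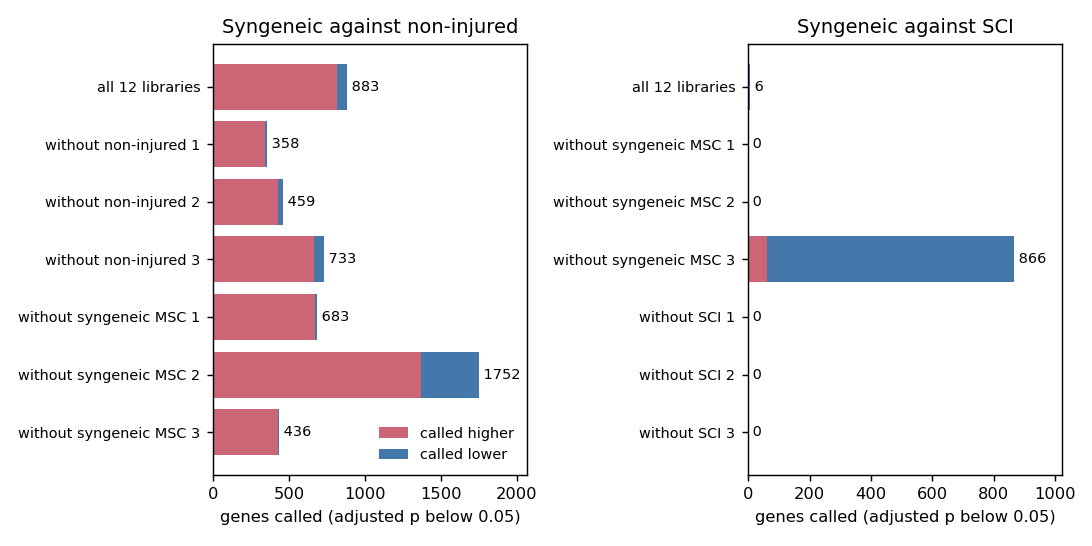
Number of genes called (horizontal axis, adjusted p below 0.05; red higher, blue lower in the syngeneic group) with all 12 libraries and with 1 library left out at a time, against non-injured cord (left) and against SCI (right). Against non-injured cord the count runs from 358 to 1752, and against SCI it is 0 in 5 of the 6 fits and 866 without syngeneic replicate 3.

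Interferon-response genes and their promoters are shown first, since their sequences bear on which members share a known element. Of 25 interferon-response genes tested, 12 rose and none fell, with a list median of 1.5. Cxcl10, a chemokine that attracts activated T cells, had 0.271, 0.125 and 0.256 CPM in the non-injured and 9.05, 4.08 and 9.96 CPM in the syngeneic libraries. The groups did not overlap, with syngeneic replicate 2 the lowest of the transplanted cords, and Cxcl10 rose by 5.04 (SE 0.55, edgeR adjusted p 0.00112). Ifit3, a protein of the antiviral response, had 6.61, 6.62 and 8.36 CPM against 39.5, 23.6 and 35.6 CPM (2.19, SE 0.33). Bst2, the tether that holds budding virus at the membrane, rose by 1.68 (SE 0.36) but was not called without non-injured replicate 1 (adjusted p 0.0971, edgeR), non-injured replicate 2 (0.0847) or syngeneic replicate 3 (0.0808). The transcription factor Irf1 (1.14, SE 0.14) and the GTPases Gbp2 (2.16, SE 0.32) and Irgm1 (1.11, SE 0.21), of the defence against microbes inside cells, also rose. These 3 genes, with Cxcl10 and Ifit3, held without any 1 library. Stat2, which carries the interferon signal to the nucleus, had a log2 change of 0.00 (SE 0.15) and was not called. The count of called members was 6 without syngeneic replicate 3, 5 without non-injured replicate 1 and 6 without non-injured replicate 2. Cxcl10, Irf1 and Gbp2 overlap a gene on the opposite strand. Since no label states the strand setting of the counting, reads of the partner gene cannot be told apart in such genes.

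The 250 bases before the first RefSeq start of each gene (GRCm38.p6) were searched on both strands for GAAA, any 2 bases and GAAA again, the core of the interferon-stimulated response element. It was found in 12 of 18 interferon-response genes that had an entry (66.7%), among them 5 of the 10 called: Bst2, Cxcl10, Gbp2, Ifit3 and Irgm1. The other holders among the 12, Stat2 included, were not called, so within this list the element was not particular to called members. The same letters were found in 821 of all 27025 promoters (3.04%), in 323 of the 12226 promoters of genes tested (2.64%), in 34 of 616 of genes called higher (5.52%) and in 1 of 51 of genes called lower (1.96%). In the class I antigen presentation list 2 of 11 called members held it, B2m and H2-T23. A match is a description of letters and not of a bound site. Promoters of 3 interferon-response genes and of B2m, the shared light chain of class I molecules, are printed to show where the element stands. All of them are of called genes, and they run 5′ to 3′ on the gene's strand. Capitals mark the element, which appears as its reverse complement in Ifit3.
Cxcl10: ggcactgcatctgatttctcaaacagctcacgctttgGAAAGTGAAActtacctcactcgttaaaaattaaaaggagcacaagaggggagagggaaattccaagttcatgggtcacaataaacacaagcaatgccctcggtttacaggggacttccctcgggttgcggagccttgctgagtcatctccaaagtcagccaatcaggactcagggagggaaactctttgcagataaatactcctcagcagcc
Ifit3: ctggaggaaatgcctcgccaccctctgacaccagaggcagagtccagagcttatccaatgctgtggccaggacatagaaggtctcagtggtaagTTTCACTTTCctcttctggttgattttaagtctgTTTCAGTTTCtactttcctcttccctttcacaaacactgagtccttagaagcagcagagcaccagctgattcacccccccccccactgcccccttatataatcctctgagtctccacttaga
Bst2: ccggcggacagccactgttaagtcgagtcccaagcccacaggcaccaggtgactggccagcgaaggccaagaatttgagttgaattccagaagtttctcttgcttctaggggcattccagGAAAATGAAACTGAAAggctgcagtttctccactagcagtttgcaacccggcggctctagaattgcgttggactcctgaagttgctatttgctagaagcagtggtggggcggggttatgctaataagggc
B2m: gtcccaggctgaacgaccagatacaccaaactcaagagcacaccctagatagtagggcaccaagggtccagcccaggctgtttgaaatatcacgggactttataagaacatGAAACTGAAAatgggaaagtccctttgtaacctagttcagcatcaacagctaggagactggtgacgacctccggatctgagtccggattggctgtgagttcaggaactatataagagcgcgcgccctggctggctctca
These windows are chr5:92348890-92349139 on the minus strand for Cxcl10, chr19:34583279-34583528 on the plus strand for Ifit3, chr8:71537473-71537722 on the minus strand for Bst2 and chr2:122147437-122147686 on the plus strand for B2m. Cxcl10 and B2m hold 1 match each, while Ifit3 and Bst2 hold 2. In Bst2 the 2 matches share bases. The nearest match ends 204 bases before the start in Cxcl10, 113 in Ifit3, 115 in Bst2 and 130 in B2m.

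Genes that present antigen rose in the transplanted cord. Of 15 genes of MHC (major histocompatibility complex) class I presentation tested, 13 rose and none fell, with a median of 1.54. B2m had 99.7, 103 and 182 CPM in the non-injured and 353, 301 and 519 CPM in the syngeneic libraries. The highest non-injured library lay below the lowest syngeneic one, and the change was 1.61 (SE 0.26, edgeR adjusted p 0.00402). The heavy chains H2-D1 (1.54, SE 0.21) and H2-K1 (1.57, SE 0.25) rose, although near-identical copies make the split of reads among such genes uncertain. Psmb8, a catalytic subunit of the immunoproteasome that cuts peptides for these molecules, rose by 1.98 (SE 0.25), and Tap1, which carries the peptides into the endoplasmic reticulum, by 1.59 (SE 0.28). Psme2, an activator of the proteasome, was not called (0.21, SE 0.17). Without non-injured replicate 1 the class I count was 7, and it was 3 when only the libraries of the 2 compared groups were fitted. Psmb8 and Tap1 overlap a gene on the opposite strand.

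Of 11 genes of MHC class II presentation, by which phagocytes show peptides to helper T cells, 9 rose and none fell (median 2.78). All 11 had syngeneic libraries above every non-injured one, while over all genes tested 20.9% were separate in either direction. Cd74, the invariant chain, had 1.31, 3.81 and 2.72 CPM in non-injured cord and 23.7, 21.9 and 62 CPM in the syngeneic cord, with replicate 3 the highest (3.82, SE 0.50). H2-Aa, a chain of the class II molecule itself, rose by 4.07 (SE 0.57), and Ctss, the protease that trims the invariant chain, by 2.78 (SE 0.35). Ciita, the master regulator of the class II genes, had 2 counts over the 3 non-injured and 35 over the 3 syngeneic libraries. The ratio at equal depth was 17.1 (95% exact counting interval 4.39 to 147), and such intervals cover counting error only. H2-Ob was not called (0.95, SE 0.40). Ciita was called in 2 of the 6 fits that left out a library, those without syngeneic replicate 1 (edgeR adjusted p 0.0487) and 2 (0.00227). Cd74 shares bases with another gene of its strand, and Ciita overlaps a gene on the opposite strand.

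Of 14 genes of resident microglia tested 11 rose and none fell, with a median of 1.27. The count was 8 to 12 when 1 library was left out and 3 when only the libraries of the 2 compared groups were fitted. Tmem119, a surface protein of microglia, had 13.2, 11.8 and 16.5 CPM in the non-injured and 25.4, 26.1 and 38.9 CPM in the syngeneic libraries (1.12, SE 0.20, edgeR adjusted p 0.00781). Aif1, which encodes IBA1, rose from 3.75, 3.25 and 5.03 CPM to 14.1, 13.2 and 23.5 CPM (2.07, SE 0.26). Each of these genes was separate between the groups, with syngeneic replicate 3 the highest library. Csf1r, the receptor that keeps microglia alive, rose by 1.63 (SE 0.21) and the fractalkine receptor Cx3cr1 by 1.65 (SE 0.23); both overlap a gene on the opposite strand. P2ry12, the purine receptor of resting microglia, was not called (0.47, SE 0.15, edgeR adjusted p 0.0885), nor was the microglial transcription factor gene Sall1 (0.17, SE 0.14). Sparc, a matrix protein also made by other cells, had 0.11 (SE 0.20).

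Genes of phagocytes that take up lipid were the most raised of the lists with at least 10 members. Of 20 tested 16 rose, none fell and the median was 3.04. Itgax, an integrin of activated phagocytes, had 0.348, 0.625 and 0.359 CPM in non-injured cord and 25, 15.5 and 58 CPM in syngeneic cord (6.23, SE 0.53, edgeR adjusted p 0.000377). Gpnmb, a glycoprotein of lipid-laden macrophages (ENSMUSG00000029816, GRCm38 chromosome 6, 49036546 to 49070929, plus strand), had 3.94, 1.62 and 6.82 CPM against 107, 49.9 and 665 CPM. Its 3 syngeneic values all lay above the non-injured ones, with replicate 3 far above replicates 1 and 2 (6.03, SE 0.99). The glucan receptor Clec7a rose by 5.54 (SE 0.49), the protease inhibitor Cst7 by 6.61 (SE 0.61), the lectin Lgals3 by 5.19 (SE 0.58) and the lipid receptor Trem2 by 3.14 (SE 0.42). Abca1, the pump that exports cholesterol from loaded cells, had 39.7, 39.9 and 38.9 CPM against 217, 98.7 and 380 CPM (2.55, SE 0.37). The genes named so far in this list held without any 1 library. Apoe, the carrier that takes up exported cholesterol, rose by 1.93 (SE 0.42) but was not called without syngeneic replicate 3 (edgeR adjusted p 0.073) or without non-injured replicate 1 (0.0962) or 2 (0.0834). Fabp5, a fatty acid carrier, was not called (0.09, SE 0.24).

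**Figure D3:**
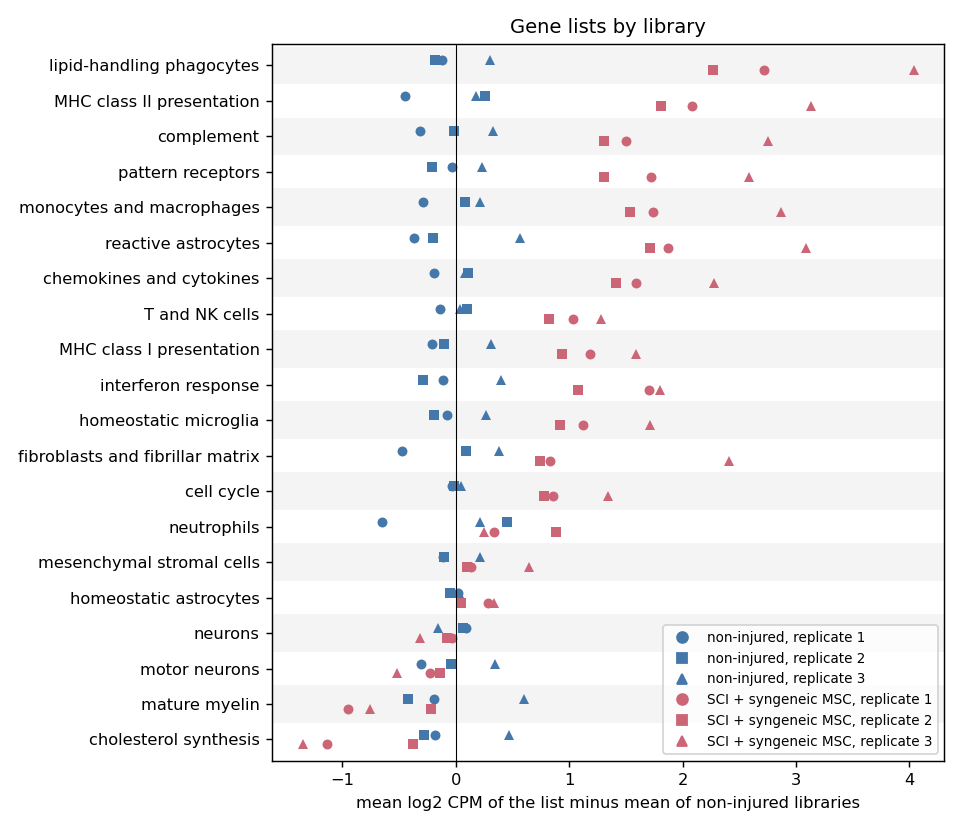
Mean log2 CPM of each gene list in each library, minus the mean of the 3 non-injured libraries (horizontal axis), for 20 lists (vertical axis); blue marks are non-injured, red marks syngeneic, and circles, squares and triangles are replicates 1, 2 and 3. In the lists of phagocytes, antigen presentation, complement and reactive astrocytes all red marks lie to the right of the blue ones, with the red triangle farthest out, and in the cholesterol list the red square (-0.38) lies close to the blue marks.

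Of 19 lysosomal genes tested 8 rose and none fell (median 0.60). Atp6v0d2, a subunit of the pump that acidifies lysosomes, gave the largest fitted rise of the genes named by size, from 1 count over the 3 non-injured libraries to 526 over the syngeneic ones, a ratio of 513 (95% exact counting interval 91.7 to 20300). Its syngeneic levels were 2.27, 2.08 and 27.2 CPM, so replicate 3 held most of the counts, and it was not called without non-injured replicate 1 (edgeR adjusted p 0.115), 2 (0.0737) or 3 (0.0702). The proteases Ctsz (2.34, SE 0.37) and Ctsd (2.37, SE 0.41) and the lysosomal protein Grn, progranulin (2.21, SE 0.35), rose and held without any 1 library. Neu1, a sialidase, had 48.8, 48 and 47.2 CPM against 46.9, 47.9 and 48.7 CPM (-0.01, SE 0.08). Without any of the non-injured libraries, each left out in turn, 5 members were called. When only the libraries of the 2 compared groups were fitted, 0 members were called. Ctsz and Grn overlap a gene on the opposite strand and Ctsd one on its own strand.

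Of 15 monocyte and macrophage genes 8 rose and none fell (median 2.12). Lyz2, lysozyme of macrophages and neutrophils, had 11.8, 9.81 and 13.4 CPM in non-injured cord and 249, 169 and 1052 CPM in syngeneic cord (5.39, SE 0.68, edgeR adjusted p 0.00179). The antibody receptor Fcgr1 rose by 2.44 (SE 0.27), and Ccr2, the receptor by which monocytes follow chemokine out of blood, had 0.155, 0.187 and 0.256 CPM against 1.4, 1.23 and 3.21 CPM (3.23, SE 0.50). Arg1, an enzyme of alternatively activated macrophages, had 0.271, 0.187 and 0.103 CPM against 0.175, 0.204 and 0.257 CPM, and its groups overlapped (0.10, SE 0.64). Chil3 and the monocyte marker Ly6c2, which has near-identical copies, were not called either (0.19, SE 0.45; 0.85, SE 0.64).

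Of 9 neutrophil genes tested 3 had an unadjusted edgeR p below 0.05, all higher, and 1 was called (11.1%, against 5.34% of all genes tested). Csf3r, a growth factor receptor gene that microglia also express, rose from 7.65, 5.56 and 8.56 CPM to 27.6, 19.2 and 46 CPM (2.08, SE 0.29). The granule proteins S100a8 (0.26, SE 0.37), S100a9 (0.09, SE 0.40) and Camp (0.03, SE 0.54) overlapped between the groups. The list median of 0.26 was -0.06 without non-injured replicate 1 and -0.24 without syngeneic replicate 2. The neutrophil markers Ly6g, Elane and Cxcr2 did not pass the filter on low counts.

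T and natural killer (NK) cell genes were scarce in both groups. Of 21 tested 6 rose and none fell (median 1.39, or 1.36 with genes at 0 counts set to their bound). In all 6 libraries 13 stayed under 1 CPM, and 3 had 0 counts in the non-injured group. The filter on low counts took in all 4 groups, so scarce members could be tested through the allogeneic libraries. Such members could hardly fall, so the absence of falls is no result about them. The summed level of the list was 6.15 to 7.12 CPM in the non-injured and 10.9 to 14.6 CPM in the syngeneic libraries. Cd8a, a chain of the cytotoxic co-receptor (ENSMUSG00000053977, GRCm38 chromosome 6, 71373427 to 71379173, plus strand), had 0 counts in the 3 non-injured libraries and 0.568, 0.245 and 0.707 CPM in the syngeneic ones, at least 9.76-fold higher against a floor of 3 counts over the group. The chemokine Ccl5, made by activated T cells but not only by them, had 0.0773, 0.312 and 0.103 CPM against 1.66, 1.19 and 1.93 CPM (3.34, SE 0.46). Both held without any 1 library. The T cell receptor chain Cd3d was at least 6.50-fold higher, and Cd3e had 2 counts against 17, a ratio of 8.29 (95% exact counting interval 1.97 to 74.0). Each of these receptor genes was called in 1 of the 6 fits, that without syngeneic replicate 2, and Cd3e overlaps a gene on the opposite strand. Zap70, a kinase of that receptor, was not called (-0.14, SE 0.35). Without syngeneic replicate 3, or without any 1 of the non-injured libraries, 2 members were called. No member of the 6 B cell or the 5 dendritic cell genes tested was called by edgeR, DESeq2 or limma-voom, and 0 had an unadjusted edgeR p below 0.05, and Ms4a1 and Mzb1 of B cells and Xcr1, Clec9a, Ccr7 and Cd209a of dendritic cells did not pass the filter.

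Of 23 chemokine and cytokine genes, signals that draw leukocytes, 14 rose and none fell (median 1.57). Ccl3, a chemokine of microglia and macrophages, had 0.193, 0.25 and 0.154 CPM in non-injured cord and 5.29, 5.19 and 9.19 CPM in syngeneic cord, and the groups lay far apart (5.01, SE 0.34, edgeR adjusted p 8.15e-05). Its neighbour Ccl4 rose by 5.38 (SE 0.56) and the monocyte attractant Ccl2 by 3.41 (SE 0.36). Tnf, a cytokine of activated phagocytes, stayed low at 0.612, 0.449 and 1.16 CPM against 0.0773, 0.0625 and 0.0513 CPM (3.33, SE 0.59). Il1rn, the antagonist of the interleukin-1 receptor, had 2 counts against 136, a ratio of 66.3 (95% exact counting interval 18 to 553). Il33, an alarmin stored in nuclei of glia, was abundant before and rose from 120, 113 and 95.6 CPM to 221, 198 and 254 CPM (1.04, SE 0.13). These genes held without any 1 library. Il1b was not called (1.54, SE 0.46, edgeR adjusted p 0.0787; it overlaps a gene on the opposite strand), nor was Lif, a cytokine of the interleukin-6 family (-0.01, SE 0.45), and Cxcl2, Cxcl13, Il6 and Il10 did not pass the filter.

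Receptors that sense microbes and debris rose in 11 of 16 cases and fell in none (median 2.09). Tlr2, a receptor of lipoproteins, had 3.63, 3 and 4.15 CPM against 24.2, 13.4 and 34.8 CPM (2.73, SE 0.30). Tlr1 rose by 3.13 (SE 0.46), the lipopolysaccharide co-receptor Cd14 by 2.54 (SE 0.34) and the protease of the inflammasome Casp1 by 1.34 (SE 0.20). Clec4e, a lectin that binds a protein released by dying cells, had 0.0387, 0.0625 and 0.103 CPM against 0.0874, 0.0817 and 0.193 CPM and was not called (0.72, SE 0.70).

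Complement genes rose in 10 of 15 cases and fell in none (median 2.62). C4b, a component cleaved on tagged surfaces (ENSMUSG00000073418, GRCm38 chromosome 17, 34728380 to 34743882, minus strand), had 39.4, 44.2 and 67.4 CPM in non-injured cord and 332, 261 and 511 CPM in syngeneic cord. The groups lay far apart, with syngeneic replicate 3 the highest (2.87, SE 0.29, edgeR adjusted p 0.000836). C1qa, C1qb and C1qc, which form the recognition molecule of the classical pathway, rose by 3.07 (SE 0.38), 2.85 (SE 0.38) and 3.01 (SE 0.40). C3ar1, the receptor for the C3a fragment, rose by 3.71 (SE 0.49). Cd59a, which blocks the membrane attack complex, was not called (-0.27, SE 0.21). The count was 6 without syngeneic replicate 3 and 6 without non-injured replicate 2.

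Of 17 genes of reactive astrocytes 11 rose and none fell (median 1.81). Gfap, their filament protein (ENSMUSG00000020932, GRCm38 chromosome 11, 102887336 to 102900912, minus strand), had 1311, 1151 and 2294 CPM in non-injured cord and 3737, 3819 and 5870 CPM in syngeneic cord. No library overlapped, non-injured replicate 3 being the closest to the transplanted cords, and Gfap rose by 1.5 (SE 0.28, edgeR adjusted p 0.00923). It was not called without non-injured replicate 1 (1.38, edgeR adjusted p 0.0584). Tgm1, a transglutaminase that cross-links proteins, had 0.193, 0.125 and 0.205 CPM against 16.0, 9.93 and 27.9 CPM (6.59, SE 0.46). The protease inhibitors Timp1 (5.10, SE 0.54) and Serpina3n (2.96, SE 0.38), the surface protein Cd109 (3.30, SE 0.39) and the filament protein Vim (2.77, SE 0.41) rose and held without any 1 library. S100a10 was not called (0.14, SE 0.30). The count was 6 without non-injured replicate 1 and 7 without non-injured replicate 2. Tgm1 overlaps a gene on the opposite strand.

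Of 14 genes of homeostatic astrocyte function 3 rose and none fell (median 0.16), a called share of 21.4% against 5.34% of all genes tested. The 3 were the water channel Aqp4 (0.96, SE 0.22), the membrane protein Mlc1 (0.61, SE 0.13) and the glutamate transporter Slc1a3 (0.52, SE 0.13). None of the 3 was called without syngeneic replicate 3 (edgeR adjusted p 0.0954, 0.095 and 0.195), without non-injured replicate 1 (0.112, 0.0931 and 0.148) or without non-injured replicate 2 (0.101, 0.0809 and 0.137), and Slc1a3 was also not called without syngeneic replicate 1 (0.103). The gap junction gene Gjb6 had 93.2, 91 and 92.3 CPM against 87.4, 91 and 96.2 CPM (-0.01, SE 0.12).

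Matrix genes were uneven among the transplanted cords. Of 18 fibroblast and fibrillar matrix genes 5 rose and none fell (median 1.04). Ccn5, a matricellular protein, had 0.0387, 0.125 and 0.205 CPM against 25.1, 14.5 and 59.8 CPM (8.08, SE 0.77, edgeR adjusted p 0.000531), and Thbs2, an adhesive glycoprotein, rose by 1.77 (SE 0.25). Col1a1, a chain of fibrillar collagen I (GRCm38 chromosome 11, 94936224 to 94953042, plus strand), had 8.62, 32.1 and 31.3 CPM in non-injured cord and 22.2, 31.4 and 244 CPM in syngeneic cord. Syngeneic replicates 1 and 2 lay within the non-injured range and replicate 3 near the SCI libraries (250 to 394 CPM), and Col1a1 was not called (2.05, SE 0.84, edgeR adjusted p 0.204). Pdgfrb, a growth factor receptor of fibroblasts and pericytes, had a change of 0.01 (SE 0.22). The summed level of the list was 232 to 396 CPM in the non-injured libraries and 525, 442 and 1579 CPM in the syngeneic ones. The count was 2 without non-injured replicate 1, and 3 without non-injured replicate 2 or 3.

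Of 18 proteases and protease inhibitors 7 rose and none fell (median 1.03), among them Mmp12, macrophage elastase (0.155, 0 and 0.103 CPM against 7.43, 6.54 and 20.9 CPM; 6.79, SE 0.77), and Plau, urokinase (3.11, SE 0.39). Timp4 was not called (-0.08, SE 0.16), and 4 members were called without syngeneic replicate 3 or non-injured replicate 1 or 2. Mmp12 overlaps a gene on the opposite strand. Of 17 proteoglycans and tenascins of the scar 3 rose and none fell (median 0.40), a called share of 17.6% against 5.34% of all genes tested. The 3 were Fmod, fibromodulin (3.01, SE 0.55), Tnc, tenascin C (1.64, SE 0.37), and Chst11, an enzyme that sulfates chondroitin (0.59, SE 0.15). Aggrecan, Acan, of the nets around neurons, was not called (-0.03, SE 0.21). Without non-injured replicate 1 none of the 3 was called (Fmod 2.80, edgeR adjusted p 0.0546; Tnc 1.45 and 0.12; Chst11 0.58 and 0.144), 1 member was called without syngeneic replicate 3 or non-injured replicate 2, and 6 without syngeneic replicate 2. Tnc and Timp4 overlap a gene on the opposite strand.

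Of 12 genes that mark mesenchymal stromal cells themselves 3 had an unadjusted edgeR p below 0.05, all higher. Of all 16527 genes tested 3188 had such a p. Of the 12, 1 was called (8.33%, against 5.34% of all genes tested). Itga11, a collagen receptor, rose from 0.387, 0.437 and 0.513 CPM to 0.918, 0.858 and 1.54 CPM (1.28, SE 0.31). It was called in 1 of the 6 fits that left out a library, that without syngeneic replicate 2. In that fit 2 members of the list were called. The other scalings, filters, tools and choices of groups called 0 to 3 members. Nt5e (0.12, SE 0.18), Eng (-0.32, SE 0.19), Alcam (0.07, SE 0.14) and Cxcl12 (-0.10, SE 0.23), which cultured MSC are sorted by or secrete, were not called, and each is also expressed in cord without a graft. The list median of 0.28 was -0.04 without syngeneic replicate 3. None of 8 bone and cartilage genes was called by edgeR, DESeq2 or limma-voom, and 2 had an unadjusted edgeR p below 0.05, both lower. Reads of graft and host cannot be told apart in a syngeneic transplant, and no gene measured here marks the graft.

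**Figure D4:**
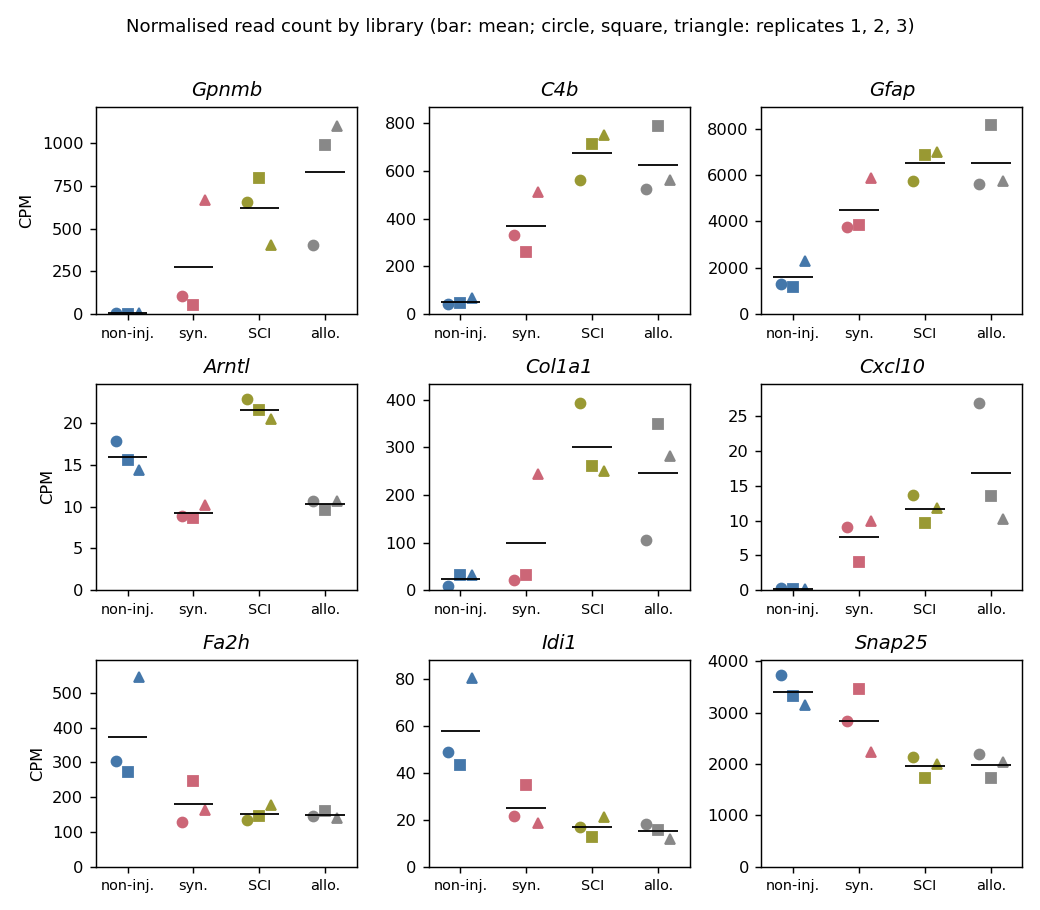
CPM (vertical axes, linear from 0) of 9 genes in each of the 12 libraries by group, with circles, squares and triangles for replicates 1, 2 and 3 and a bar at the group mean. Gpnmb and Col1a1 show syngeneic replicate 3 (665 and 244 CPM) far above replicates 1 and 2, Arntl shows the 3 syngeneic libraries (8.66 to 10.2 CPM) close together, and Snap25 overlaps between non-injured and syngeneic cord.

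Cholesterol synthesis genes were lower in the transplanted cord, by sizes that 1 library moved. Of 18 tested 5 fell, none rose, and the median was -0.93. In 15 of them every syngeneic library lay below every non-injured one, while over all genes tested 20.9% were separate in either direction. Members moved together across libraries, so these are not separate observations. Idi1, which makes the reactive isoprenoid unit (ENSMUSG00000058258, GRCm38 chromosome 13, 8885501 to 8892451, plus strand), had 49.1, 43.6 and 80.7 CPM in non-injured cord and 21.6, 34.9 and 18.7 CPM in syngeneic cord. The groups did not overlap, syngeneic replicate 2 being the closest to the controls (-1.20, SE 0.29, edgeR adjusted p 0.0369). Cyp51, which removes a methyl group from lanosterol, had a change of -1.13 (SE 0.29), and the late-step reductase gene Dhcr7 of -0.95 (SE 0.24). Hmgcs1, an early enzyme of the pathway, had 898, 778 and 1824 CPM against 342, 728 and 288 CPM and missed the threshold (-1.37, SE 0.37, edgeR adjusted p 0.0581). All 18 had an unadjusted edgeR p below 0.05. The number called was 0 when only the libraries of the 2 compared groups were fitted, 3 without the mitochondrially encoded genes, 8 with limma-voom, 10 with library totals as the scaling and 15 with DESeq2. Without syngeneic replicate 2, the library nearest to the controls, all 18 were called. None was called without syngeneic replicate 1 or 3 or without non-injured replicate 1 or 3, and 3 were called without non-injured replicate 2. Idi1 then had an edgeR adjusted p of 0.122, 0.149, 0.076 and 0.0882 in the fits that lost all calls. Idi1, Cyp51 and Hmgcs1 overlap a gene on the opposite strand. Myelin genes moved with this list across the non-injured libraries: their summed level was 44040, 35140 and 84110 CPM in non-injured replicates 1, 2 and 3, and that of the cholesterol genes 2843, 2567 and 4749 CPM. In syngeneic replicates 1, 2 and 3 the sums were 24560, 45080 and 28060 CPM for myelin and 1348, 2365 and 1129 CPM for cholesterol synthesis. The part of myelin content in the cholesterol result was not tested.

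Of 14 mature myelin genes tested 1 fell and none rose, a called share of 7.14% against 5.34% of all genes tested. The list median was -0.71. At an unadjusted edgeR p below 0.05 were 8, all lower, and DESeq2 called 3 and limma-voom 0. Fa2h, which hydroxylates fatty acids of myelin lipids, had 303, 272 and 545 CPM in non-injured cord and 127, 247 and 162 CPM in syngeneic cord (-1.06, SE 0.28, edgeR adjusted p 0.0494). It was not called without syngeneic replicate 1 (-0.86, edgeR adjusted p 0.153), syngeneic replicate 3 (-1.01, 0.185), non-injured replicate 1 (-1.19, 0.0796) or non-injured replicate 3 (-0.72, 0.112). Mbp, myelin basic protein, had 16400, 12330 and 32910 CPM against 9029, 18570 and 10630 CPM, and the groups overlapped (-0.69, SE 0.36). Syngeneic replicate 2 lay within the non-injured range. The count was 7 without syngeneic replicate 2, 2 without non-injured replicate 2, and 0 in each of the other 4 fits. Myrf, the transcription factor of myelin genes, had a change of -0.08 (SE 0.15). Of 12 genes of oligodendrocyte precursors 1 was called (8.33%, against the same 5.34%). Lhfpl3, a membrane protein, rose by 0.36 (SE 0.09). It overlaps a gene on the opposite strand and kept its call only without syngeneic replicate 2 among the 6 fits. Schwann cell genes, which mark nerve roots, gave 0 calls among 11 tested with edgeR, DESeq2 or limma-voom, and 1 had an unadjusted edgeR p below 0.05. Their summed level was 159, 1030 and 1714 CPM in the non-injured libraries, which spans the 371, 613 and 944 CPM of the syngeneic ones.

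Neuronal genes were not called in any of the lists tested. None of 15 general neuronal genes (median -0.21), 11 motor neuron genes (-0.29), 19 genes of transmitter synthesis and receptors (0.13) or 16 ion channels (0.01) passed the test in edgeR, DESeq2 or limma-voom. At an unadjusted edgeR p below 0.05 were 3 of the general neuronal genes, all lower, and 0 of the other lists. Over all 16527 genes tested 3188 had such a p. Snap25, a protein of transmitter release, had 3735, 3330 and 3146 CPM in non-injured cord and 2846, 3457 and 2242 CPM in syngeneic cord (-0.26, SE 0.17, edgeR adjusted p 0.453). Chat, which makes acetylcholine in motor neurons, had 33.6, 35.5 and 32.7 CPM against 30.9, 26 and 23.8 CPM, separate between the groups but not called (-0.34, SE 0.18, edgeR adjusted p 0.343). The neurofilament gene Nefl had a change of -0.44 (SE 0.18), with all syngeneic libraries below the non-injured ones; it overlaps a gene on the opposite strand. These values do not show that neuronal genes were alike in the 2 groups. Non-injured replicate 3 had low values of some neuronal genes, with Syt1 at 30 CPM against 145 and 180 CPM in the other non-injured libraries. None of 16 Hox genes, whose levels mark the position along the cord, was called by edgeR (median -0.18), 2 had an unadjusted p below 0.05, and DESeq2 called 1.

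Genes linked to repair were mixed. Sprr1a, induced in regrowing axons, had 0.271, 0.187 and 0.205 CPM in non-injured cord and 15.8, 8.17 and 22.9 CPM in syngeneic cord (6.05, SE 0.58, edgeR adjusted p 0.000531), and the stress transcription factor Atf3 rose by 3.33 (SE 0.55). Of 17 genes of axon growth 3 were called (17.6%, against 5.34% of all genes tested), all higher. The third was Socs3, an inhibitor of cytokine signals (1.55, SE 0.40), which was called in 1 of the 6 fits, that without syngeneic replicate 2. Gap43, a protein of growth cones, was not called (0.51, SE 0.24), nor was Basp1 (-0.02, SE 0.15). Of 12 trophic factors 2 rose (16.7%, against the same 5.34%), Fgf2 and Hgf. Fgf2 had 14.7, 15.2 and 17.3 CPM against 56.3, 32.7 and 98.5 CPM (1.99, SE 0.31). Hgf (2.36, SE 0.47) was not called without non-injured replicate 1 (2.15, edgeR adjusted p 0.0838). Bdnf, a neurotrophin, overlapped between the groups at 7.46, 8.43 and 3.69 CPM against 8.26, 6.46 and 7.77 CPM (0.20, SE 0.25). Fgf2, Hgf and Bdnf each share bases with another gene.

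Of 17 cell cycle genes 9 rose and none fell (median 0.90). Top2a, which untangles DNA before division, had 1.89, 1.62 and 0.769 CPM against 7.12, 6.33 and 11.8 CPM (2.53, SE 0.35), and the proliferation marker Mki67 had 3.05, 3.12 and 1.85 CPM against 7.69, 6.90 and 14.5 CPM (1.85, SE 0.35). Tyms, which makes thymidylate, was not called (0.13, SE 0.24). The count was 3 without non-injured replicate 1, 5 without non-injured replicate 2 and 4 without syngeneic replicate 3. Top2a shares bases with another gene of its strand.

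Of 16 endothelial genes 1 was called (6.25%), near the 5.34% called over all genes tested. Cldn5, a tight junction protein, fell from 42.8, 42.7 and 66.2 CPM to 21.9, 33.0 and 27.4 CPM (-0.88, SE 0.22, edgeR adjusted p 0.0397). It kept its call in 1 of the 6 fits, that without syngeneic replicate 2, with edgeR adjusted p of 0.0583 to 0.142 in the other 5. Cdh5, the cadherin of the endothelium, had -0.02 (SE 0.25). Of 11 ependymal genes 2 rose (18.2%, against the same 5.34%): Rarres2, a secreted chemoattractant (1.33, SE 0.26), and Foxj1, the regulator of motile cilia (0.41, SE 0.09). Neither was called without syngeneic replicate 3 (edgeR adjusted p 0.068 and 0.165) or non-injured replicate 1 (0.0725 and 0.0654), and Foxj1 also not without non-injured replicate 2 (0.0951) or 3 (0.0716). None of 12 meningeal or 11 pericyte genes was called by edgeR. At an unadjusted p below 0.05 were 5 meningeal genes, all higher, and 3 pericyte genes, against 3188 of all 16527 genes tested. DESeq2 called 3 meningeal genes and 0 pericyte genes. Rarres2 overlaps a gene on the opposite strand.

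None of 15 genes of oxidative phosphorylation (median -0.23), 12 mitochondrially encoded genes (-0.44) or 10 heat shock genes was called by edgeR, DESeq2 or limma-voom, and 1, 3 and 0 of them had an unadjusted edgeR p below 0.05, all lower. Of 12 immediate early genes 1 was called (8.33%, against 5.34% of all genes tested). Junb rose by 0.88 (SE 0.21) and was called in 1 of the 6 fits, that without syngeneic replicate 2. Of 11 iron and haem genes 2 rose (18.2%, against the same 5.34%). The phagosome metal transporter Slc11a1 (3.21, SE 0.48) held without any 1 library. The haem-degrading enzyme Hmox1 (1.51, SE 0.35) was called in 2 of the 6 fits, those without syngeneic replicate 1 or 2. Igfbpl1, a binding protein outside the lists and among the 8 largest rises, had 0.155, 0.25 and 0 CPM against 8.92, 7.11 and 11.4 CPM (6.05, SE 0.56).

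Of 17 clock genes tested 3 rose and 1 fell (median 0.36), a called share of 23.5% against 5.34% of all genes tested. Arntl, the activator at the core of the clock (ENSMUSG00000055116, GRCm38 chromosome 7, 113207465 to 113314126, plus strand), had 17.9, 15.5 and 14.4 CPM in non-injured cord and 8.92, 8.66 and 10.2 CPM in syngeneic cord, with no overlap (-0.79, SE 0.12, edgeR adjusted p 0.00309). The repressors Per2 (14.9, 18.9 and 13 CPM against 26.6, 28.3 and 27.2 CPM; 0.81, SE 0.13) and Cry1 (13.4, 12.1 and 11.7 CPM against 21.9, 19.4 and 19.7 CPM; 0.71, SE 0.11) rose. These 3 held without any 1 library, but 0 clock genes were called when only the libraries of the 2 compared groups were fitted. Bhlhe41, a further repressor (0.59, SE 0.12), was not called without syngeneic replicate 3 (edgeR adjusted p 0.0942) or without non-injured replicate 1 (0.0883) or 2 (0.062). Dbp, an output factor, had 26, 51 and 51.4 CPM against 68.7, 79.1 and 68.2 CPM and missed the threshold (0.75, SE 0.21, edgeR adjusted p 0.059). The time of day at collection is not given, and its part in these values was not tested. Arntl, Bhlhe41 and Dbp overlap a gene on the opposite strand.

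Further genes were among the largest called falls. The mitochondrial leucine tRNA gene mt-Tl1 (-1.37, SE 0.30) was called in 2 of the 6 fits, those without syngeneic replicate 2 or non-injured replicate 3. Gm3764, a gene of unassigned function, had 96.8, 89.1 and 75.6 CPM against 42.4, 48.3 and 34.2 CPM (-1.07, SE 0.18), Eml1, a microtubule-binding protein, a change of -1.03 (SE 0.21), and Lgr6, a receptor for Wnt-enhancing ligands, of -1.04 (SE 0.26). Eml1 was not called without syngeneic replicate 1 (edgeR adjusted p 0.061) or 3 (0.0617), and Lgr6 was called in 1 of the 6 fits, that without syngeneic replicate 1. The 5 lower genes that held without any 1 library, singled out after their values were seen, were Arntl, Gm3764, the transcription factor gene Etv4 (-0.99, SE 0.17), the histone deacetylase gene Hdac7 (-0.50, SE 0.10) and the membrane protease gene Sppl2b (-0.47, SE 0.08). Hdac7 and Eml1 overlap a gene on the opposite strand.

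Counts of called members of the following lists were lower when only the libraries of the 2 compared groups were fitted, without the spread of the other groups. They were then 7 for lipid-handling phagocytes, 0 for lysosomal genes, 6 for monocytes, 1 for T and NK cells, 3 for class II presentation and 6 for the interferon response. They were 7 for chemokines, 5 for complement, 4 for pattern receptors, 6 for reactive astrocytes, 2 for fibroblasts, 3 for proteases, 1 for the cell cycle and 0 for clock genes. DESeq2 called 20 interferon-response genes, while limma-voom called 7 of these, 6 complement genes and 3 T and NK cell genes. The complement count was also 6 with no filter on low counts. In the lists without a call, 1 bone gene was called without non-injured replicate 3. Without syngeneic replicate 2 these lists gave 2 pericyte, 1 meningeal, 1 oxidative phosphorylation, 2 mitochondrially encoded and 1 Hox gene. Among lists with few calls that fit called 4 iron and haem genes, against 2 with all libraries. It called 3 genes of oligodendrocyte precursors and 2 immediate early genes, against 1 each with all libraries.

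The same non-injured libraries serve as controls for SCI without a named graft, so the 2 sets of values are given side by side and are not independent. SCI against non-injured cord called 2736 genes higher (16.6%) and 1530 lower (9.26%). In the syngeneic and SCI comparisons the medians were 3.04 and 3.96 for lipid-handling phagocytes, 2.78 and 3.43 for class II presentation, 2.62 and 3.43 for complement, 1.81 and 2.85 for reactive astrocytes, 1.27 and 1.78 for microglia, and 1.04 and 2.19 for fibroblasts. They were -0.93 and -1.53 for cholesterol synthesis, with 5 and 18 of 18 members called lower, -0.21 and -0.58 for neurons, with 0 and 10 of 15 called lower, and -0.71 and -0.88 for myelin, with 1 and 9 of 14 called lower. The SCI libraries correlated with each other at r of 0.99 to 0.9907 across genes and the syngeneic ones at 0.9767 to 0.9827, and the number of calls depends on that spread as well as on the size of a change. Neutrophil genes had medians of 0.26 and 1.61, with 1 and 6 of 9 called higher. The direct test of syngeneic against SCI libraries, described below, called 0 members of each list named in this paragraph. That does not show that these lists were alike in the 2 groups.

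**Figure D5:**
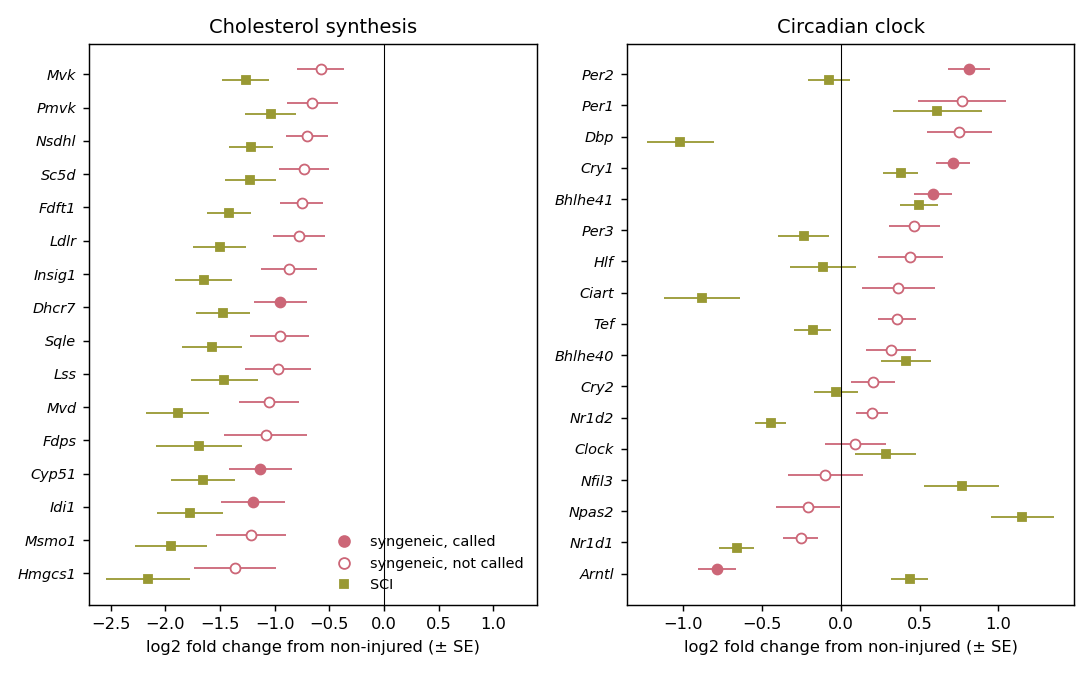
Log2 fold change from non-injured cord (horizontal axes, ± SE) of 16 of the 18 cholesterol synthesis genes (left) and 17 clock genes (right), red circles for the syngeneic group (filled where called) and olive squares for SCI; both groups are set against the same 3 non-injured libraries. All 16 syngeneic points on the left lie below 0 and on the zero side of the SCI point of the same gene, and on the right Arntl is below 0 in the syngeneic group (-0.79) and above 0 in SCI (0.44).

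The direct test of syngeneic against SCI libraries called 6 genes (0.0363%), 1 higher and 5 lower. Dbp was higher by 1.77 (SE 0.21, edgeR adjusted p 0.0152), with 20.6, 21.3 and 21.4 CPM in SCI. Arntl was lower by 1.22 on the log2 scale (edgeR adjusted p 0.00576), at 22.8, 21.5 and 20.4 CPM in SCI, and was the only gene called in this test and against non-injured cord. Fos, an immediate early gene, was lower (-1.88, SE 0.23), with 104, 116 and 148 CPM in SCI against 35.6, 23.4 and 40.9 CPM in the syngeneic and 46.8, 42.9 and 41.5 CPM in the non-injured libraries. Clec4e (-3.41), the matrix protease gene Mmp11 (-1.53) and Frem2, a matrix gene of epithelia (-1.09), were also lower. Without syngeneic replicate 3 this test called 866 genes, 804 of them lower, and without any other 1 library of the 2 groups edgeR called 0 genes. In those 5 fits 990 to 1727 genes had an unadjusted p below 0.05. With all libraries 2232 genes had such a p, and DESeq2 called 126 genes and limma-voom 10. In the allogeneic libraries, which were not part of this test, Arntl had 10.6, 9.59 and 10.7 CPM and Dbp 62.4, 75.6 and 64.2 CPM.

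The direct test against allogeneic libraries called 101 genes (0.611%), 3 higher and 98 lower in the syngeneic group. Of the 21 T and NK cell genes 17 were among the called, all lower with syngeneic cells. The filter on low counts took in all 4 groups, and 13 of the 21 stayed under 1 CPM in all 6 syngeneic and non-injured libraries. The summed level of the list was 97.4 to 191 CPM in the allogeneic libraries. Members could thus enter the test because they were high there, so their number is no separate support for the difference. Cd8a had 13.9, 25.7 and 13 CPM with allogeneic cells against 0.568, 0.245 and 0.707 CPM with syngeneic cells (-5.14, edgeR adjusted p 0.000918). Of the 15 class I genes 5 were called lower with syngeneic cells, among them H2-K1 (-1.32) and Tap1 (-1.37), and Cd74 was lower by 2.19 on the log2 scale. No gene of the cholesterol, myelin, neuron, reactive astrocyte or complement lists was called in either direct test. The count against allogeneic libraries was 1178 without syngeneic replicate 3, 24 without syngeneic replicate 1, 25 without syngeneic replicate 2 and 46 without allogeneic replicate 2.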

How the data were processed

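RNA-seq libraries of 12 mouse spinal cord samples in 4 groups of 3 were analysed from the deposited table of whole-number counts per gene. Per the labels' protocols, tissue was mechanically dissociated, RNA was purified on RNeasy columns with DNase, and poly(A) libraries were made with a TruSeq stranded kit. Per the submitters' processing notes, which list names without roles, the tools included featureCounts 1.5.1 and STAR 2.5.1, besides Picard, StringTie 1.3.3, Trim Galore 0.4.1 and FastQC 0.11.5, and the genome build was GRCm38. Neither the strand setting nor the annotation release of the counting is stated.

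Counts were tested with edgeR 4.0.16 in R 4.3.3: filterByExpr (minimum count 10, minimum total 15), TMM scaling, and the robust quasi-likelihood test on group means of all 12 libraries (8 residual degrees of freedom), with Benjamini-Hochberg adjustment over 16527 genes and a threshold of 0.05. Sharing 1 estimate of the spread among 4 groups raises the residual degrees of freedom and lets the spread of the SCI and allogeneic libraries enter the test. The code was tested on simulated data. Genes at 0 counts in a group were set against a floor of 3 counts over the group, and ratios of few counts carry exact binomial 95% intervals.

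Described were 46 lists of 674 members. Named were the 8 largest called rises and the 8 largest called falls (mean log2 CPM of at least 1, groups not overlapping), the 3 called members of smallest p and the member of largest p of each list, and a set of markers; further members were named after their values were seen. The members and lists were chosen with earlier results of these data known. Alternatives were other scalings (RLE, library totals), other filters, DESeq2 1.42.0, limma-voom (limma 3.58.1), fits of 2 groups only, no robust step, no mitochondrially encoded genes, and leaving out each library; leaving out syngeneic replicate 3 and non-injured replicate 3 together was added after seeing the data. A few genes are not reported here, although counts over lists include them.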

Additional observations from a re-analysis of the deposited data

Results flagged for a closer look

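Direct tests between injured groups separated 5 listed genes of syngeneic from SCI cord by edgeR's adjusted p. The log2 differences, syngeneic minus SCI, were -1.22 for Arntl, 1.77 for Dbp, -1.88 for Fos, -3.41 for Clec4e and -1.53 for Mmp11. None was called in a fit that left out a library other than syngeneic replicate 3.

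Between syngeneic and allogeneic cord 26 listed genes given here differed, all lower with syngeneic cells. Because the filter on low counts took in every group, scarce genes could enter this test through the allogeneic libraries. For genes of T and NK cells and for Itgae, an integrin of dendritic and T cells, the log2 differences, syngeneic minus allogeneic, were -6.62 for Cd8b1, -5.14 for Cd8a, -4.86 for Gzmk, -4.75 for Nkg7, -4.58 for Cd3g, -4.57 for Cd2, -4.41 for Cd3e, -4.36 for Gzmb, -3.93 for Klrd1, -3.83 for Trbc2, -3.4 for Ccl5, -3.24 for Cd3d, -3.08 for Lck, -3 for Il2rb, -2.65 for Itgae, -2.14 for Trac and -1.86 for Zap70. For genes of antigen presentation and interferon they were -2.19 for Cd74, -1.53 for Psmb9, -1.37 for Tap1, -1.32 for H2-K1, -1.29 for H2-D1, -1.28 for Psmb8 and -0.94 for Irf1. The remaining differences were -3.7 for Ly6c2, a monocyte gene with near-identical copies, and -2.54 for Clec4e.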

How the results depend on the processing

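The number of genes called against non-injured cord, 883, was 1409 with DESeq2, which called 880 of the 883, 172 when only the libraries of these 2 groups were fitted (171 of the 883), 556 without syngeneic replicate 3 and non-injured replicate 3 together, and 358 to 1752 when 1 library was left out. The 6 genes called against SCI were 18 with no filter, 126 with DESeq2, 10 with limma-voom, 3 with only 2 groups, and 0 to 866 with 1 library left out. The 101 called against allogeneic cord were 358 with DESeq2, 21 with only 2 groups and 24 to 1178 with 1 library left out. Medians changed sign for neutrophils (0.26) without non-injured replicate 1 (-0.06) and without syngeneic replicate 2 (-0.24, the lowest of a range up to 0.62), and for mesenchymal stromal genes (0.28) without syngeneic replicate 3 (-0.04, range up to 0.42). For iron genes (-0.02) the median was 0.03 with library totals, 0.04 with limma-voom, -0.17 to 0.26 with 1 library left out (0.13 without syngeneic replicate 1), and 0.31 without both replicates 3. The cause was not tested. Over all named genes and alternatives 1980 results kept their side of the threshold, 195 lost it and 6 gained it. Among results called in the main fit or in the alternative, 0 changed direction. Changes of sign in genes called in neither fit were not counted. Some occurred, as for Camp (0.03, and -0.69 without syngeneic replicate 2). No paired analysis was possible because the title numbers of the samples are not shared between groups. Genes with few counts in non-injured cord, 35 of the 813 higher ones with at most 3, have fold changes that depth limits.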

Other observations

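Further genes of lipid metabolism outside the lists were called lower in the transplanted cord, singled out after their values were seen. No list of such genes was fixed or tested, and none of the 5 was called in every fit that left out 1 library. Acss2, which makes acetyl-CoA from acetate, had 124, 121 and 169 CPM in non-injured and 70.8, 96.1 and 62.8 CPM in syngeneic cord (-0.85, SE 0.19). Pcyt2, of phosphatidylethanolamine synthesis, had a log2 change of -0.74 (SE 0.17), Aacs, which activates acetoacetate, of -0.78 (SE 0.18), the sterol reductase gene Tm7sf2 of -0.96 (SE 0.23) and the fatty acid elongase gene Elovl6 of -0.63 (SE 0.16). Acss2 and Elovl6 overlap a gene on the opposite strand, and Tm7sf2 one on its own strand.

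Higher genes outside the lists, also singled out after their values were seen, included Cybb, the catalytic subunit of the phagocyte oxidase, at 0.541, 0.750 and 1.28 CPM against 24.3, 12 and 54.7 CPM (5.15, SE 0.57). The inhibitory receptor genes Lag3 (2.78, SE 0.26) and Havcr2 (2.60, SE 0.36), the glycolytic enzyme gene Hk2 (2.25, SE 0.26) and the soluble pattern receptor gene Ptx3 (2.99, SE 0.39) rose as well. Of all 813 genes called higher 323 held without any 1 library. Whether the genes of this paragraph are among them is not given here.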
